A study of Mus musculus with 12 samples.

Results

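The cholesterol and fatty acid synthesis module was a list of 32 mouse genes for the enzymes and the sterol sensors that make cholesterol and fatty acids. Of these, 31 were measured by a probe set that named 1 gene symbol, among 19938 such genes on the array, and Acat2 is not analysed here. Of the listed genes, 3 (Idi1, Fdft1 and Acaca) had more than 1 probe set, and the brightest on average across the 12 arrays was kept. By their probe set numbers the kept probe sets of Idi1 and Acaca may belong to another locus, so values of the other probe sets are also given. These probe sets were thus chosen by their mean level, and the list itself was drawn up with earlier results of these data known, so the counts below describe the listed genes and are not independent evidence about them.

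RNA came from 12 colonoscopic biopsies of 6 colon tumors, 1 tumor in each of 6 mice, with a late and an early biopsy of every tumor. All mice were F1 hybrids of SWR females and C57BL/6 males, carried the Apc Min/+ allele, which truncates the Wnt pathway inhibitor Apc and causes intestinal adenomas, and had received a pair of courses of dextran sodium sulfate in drinking water around weaning, which injures the colon lining. Late biopsies were taken at 200 to 395 days of age and early biopsies at 86 to 117 days. At the end 3 tumors were intramucosal carcinoma (mice 2201, 3407 and 3413) and 3 were adenoma (mice 1755, 1803 and 1805), and the pathology at the early biopsy is not stated. Mice 1755 and 3407 were female and the others male. Every biopsy held tumor and stroma together, every group had the same allele and treatment, and normal colon was not analysed here.

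Cholesterol synthesis starts from acetyl-CoA, passes through mevalonate and the isoprenoid diphosphates to squalene, and closes with a series of reactions on lanosterol. Fatty acid synthesis draws on the same acetyl-CoA. Both are controlled by the SREBP transcription factors: when membrane sterols are low, the escort protein Scap carries SREBP from the endoplasmic reticulum to the Golgi, where it is cut free, and when sterols are high the Insig proteins hold the complex back. SREBP-2, from Srebf2, acts mainly on the cholesterol genes, and SREBP-1, from Srebf1, mainly on the fatty acid genes. The intestinal epithelium makes cholesterol for its own turnover.

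Promoters are shown for the 3 genes with the smallest p in the late against early comparison, Idi1, Cyp51 and Tm7sf2, and for Hmgcs1. Of the 25 listed genes with a promoter window, only Hmgcs1 held an exact match to the sterol regulatory element searched. Fdps, Fdft1, Sqle, Scd1, Scd2 and Stard4 had no window and were not searched. The sequences are RefSeq's, on GRCm38.p6, of 300 bases around the transcription start, mostly before it, written on the gene's strand. Idi1 lies at chr13:8885356-8885655 on the plus strand, Cyp51 at chr5:4104648-4104947 on the minus strand, Tm7sf2 at chr19:6067801-6068100 on the minus strand and Hmgcs1 at chr13:119690101-119690400 on the plus strand. Capitals mark matches on either strand to the sterol regulatory element TCACNCCAC and to the CCAAT box.
Idi1: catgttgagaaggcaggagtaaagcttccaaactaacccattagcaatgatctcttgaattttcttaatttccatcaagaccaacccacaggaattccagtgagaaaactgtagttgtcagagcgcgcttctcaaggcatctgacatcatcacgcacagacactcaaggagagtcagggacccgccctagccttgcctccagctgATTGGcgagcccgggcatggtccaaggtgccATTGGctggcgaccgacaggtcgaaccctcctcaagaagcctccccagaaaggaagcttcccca
Cyp51: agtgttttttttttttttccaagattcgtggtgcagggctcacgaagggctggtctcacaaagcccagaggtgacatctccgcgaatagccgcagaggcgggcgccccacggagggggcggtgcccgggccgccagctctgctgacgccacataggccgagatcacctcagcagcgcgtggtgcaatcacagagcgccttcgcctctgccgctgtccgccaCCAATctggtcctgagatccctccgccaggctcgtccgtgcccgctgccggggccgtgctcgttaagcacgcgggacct
Tm7sf2: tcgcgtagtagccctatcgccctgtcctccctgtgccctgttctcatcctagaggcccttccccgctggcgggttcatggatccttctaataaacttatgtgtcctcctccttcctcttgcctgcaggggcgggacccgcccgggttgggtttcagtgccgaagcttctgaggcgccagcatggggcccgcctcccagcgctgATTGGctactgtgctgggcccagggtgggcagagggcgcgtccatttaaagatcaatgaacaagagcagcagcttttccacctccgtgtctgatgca
Hmgcs1: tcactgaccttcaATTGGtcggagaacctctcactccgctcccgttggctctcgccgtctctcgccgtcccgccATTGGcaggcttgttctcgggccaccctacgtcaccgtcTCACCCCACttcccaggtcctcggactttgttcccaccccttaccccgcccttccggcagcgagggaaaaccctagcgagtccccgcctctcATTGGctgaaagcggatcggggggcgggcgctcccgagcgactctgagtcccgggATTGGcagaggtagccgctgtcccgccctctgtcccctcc
All motifs were searched on both strands, and no match of the sterol regulatory element overlapped a CCAAT box in these 4 windows. TCACNCCAC was in 1 of the 33 windows of the 25 listed genes that matched (3.03%), against 1.24% of all 32851 promoter windows. CCAAT was in 69.7% of the listed genes' windows, against 37.41% of all windows, and all 4 promoters shown held it. The GC box GGGCGG was in 72.73% against 35.66%, and the E-box CACGTG in 21.21% against 7.15%. A match describes letters only and is not a binding site. Only these exact letters within 300 bases were searched, so a window without a match does not show that the gene lacks the element.

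The deposited values were log2 intensities with array medians between 7.62 and 7.80, and depth has no meaning for them, so the number of arrays limits the precision. The 10 epithelial markers had a mean level of 11.86 to 12.57 in late biopsies and 11.75 to 12.53 in early ones. The early arrays of mice 1755, 1803, 1805 and 2201 carried the submitters' sample numbers 155 to 255 and the other 8 arrays 319 to 379. The mean of the 50 probe sets with the lowest identifiers was 7.08 to 7.19 on the first 4 arrays and 6.80 to 6.94 on the other 8. The late minus early difference therefore crosses these number ranges in 4 mice and lies within 1 range in mice 3407 and 3413.

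The first question was whether these genes differed between the late and the early biopsy of the same tumor. Most were lower in late biopsies by a small amount: 25 of 31 had a negative mean difference and the median was -0.13 on the log2 scale, against -0.02 for all 19938 genes, of which 57.9% were below 0. No listed gene passed an adjusted p of 0.05 in limma, and neither did any other gene (0% of all genes called). At an unadjusted p under 0.05, 11 of 31 were lower (35.5%), against 9.06% of all genes, and 0 were higher, against 5.68%. That count was 6 without the mouse block, 5 in the 4 mice that cross the ranges, and 8 to 12 when 1 mouse was left out. It was also 6 with the sample number range as a term, an estimate that rests on mice 3407 and 3413 alone. In all 6 mice 8 genes were lower (25.8%), against 5.18% of all genes: Idi1, Pmvk, Mvd and Sqle of the mevalonate and squalene steps, Cyp51 and Tm7sf2 of the lanosterol steps, and the fatty acid genes Scd1 and Fasn. None was higher in all 6 mice, against 2.59%. In these bulk biopsies fewer cells of a type and less RNA per cell cannot be told apart.

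**Figure D1:**
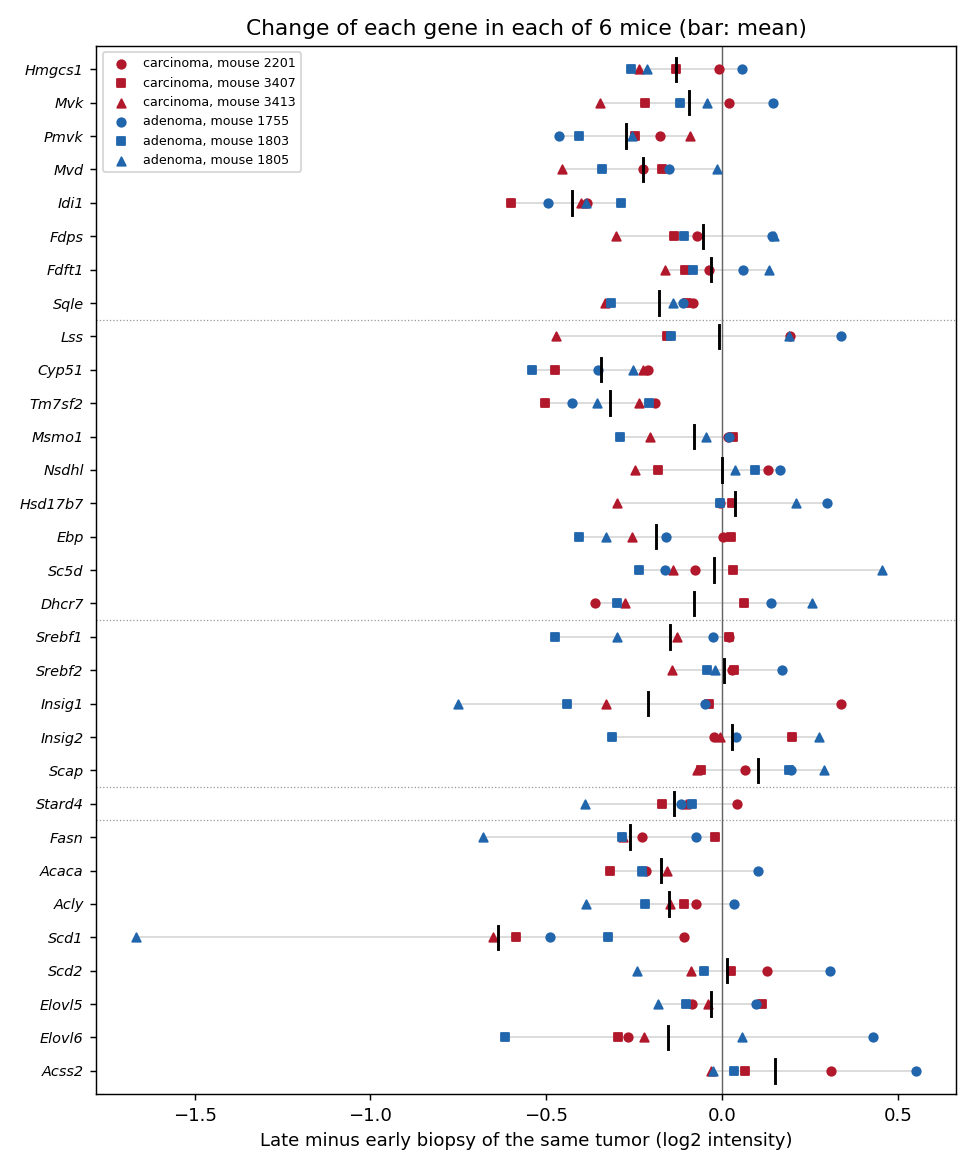
Late minus early log2 intensity of each of the 31 genes, ordered by role (mevalonate and squalene steps, lanosterol steps, SREBP control, Stard4, fatty acid synthesis), with 1 point per mouse (red for the 3 carcinoma tumors, blue for the 3 adenoma tumors) and a bar at the mean of 6 mice. All 6 points lie below 0 for 8 genes, and Scd1 in mouse 1805 lies apart at -1.67. The means of 6 genes lie above 0, with those of Acss2 and Scap the highest.

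All 8 genes of the mevalonate and squalene steps had a negative mean difference (median -0.16), against 57.9% of all genes. Of the 8, 4 were lower at an unadjusted p under 0.05 (50%, against 9.06% of all genes). Idi1, the isomerase that converts isopentenyl diphosphate to dimethylallyl diphosphate, had a lowest, median and highest log2 intensity of 10.33, 10.74 and 11.12 in late biopsies, against 10.73, 11.13 and 11.61 in early biopsies. The groups overlapped, but each tumor was lower at its late biopsy, with differences of -0.60 to -0.29. The mean difference of Idi1 was -0.43 (SE 0.0553, limma, unadjusted p = 7.6e-05, adjusted p = 0.168), a 1.34-fold lower level.

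Pmvk, phosphomevalonate kinase, was at 8.06, 8.21 and 8.33 (lowest, median, highest) in late biopsies, against 8.18, 8.50 and 8.80 in early biopsies. Its groups overlapped and the mean difference was -0.27 (SE 0.0626, limma, adjusted p = 0.221). Mvd, the decarboxylase that follows it, was at 9.94, 10.35 and 10.48 in late biopsies, against 10.39, 10.52 and 10.63 in early biopsies, a difference of -0.23 (SE 0.0663, limma, adjusted p = 0.255). Both genes were lower in 6 of 6 mice, although the difference of Mvd in mouse 1805 was only -0.01. Sqle, squalene epoxidase, had a mean difference of -0.18 and was also lower in every mouse. Hmgcs1, which makes HMG-CoA, was lower in 5 of 6 mice at -0.13 (SE 0.0601), and Mvk, mevalonate kinase, in 4 of 6 at -0.09. Fdps, which builds farnesyl diphosphate, was at -0.06 and Fdft1, squalene synthase, at -0.03, each lower in 4 of 6 mice.

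Of the 9 genes that make lanosterol (Lss) and turn it into cholesterol, 8 had a negative mean difference (88.9%, against 57.9% of all genes). Their median was -0.08, and 3 were lower at an unadjusted p under 0.05 (33.3%, against 9.06% of all genes). Cyp51, lanosterol 14-demethylase, was at 10.19, 10.46 and 10.72 (lowest, median, highest) in late biopsies, against 10.41, 10.91 and 11.07 in early biopsies. Tm7sf2, a sterol C14 reductase that acts on the product of Cyp51, was at 9.67, 9.91 and 10.13 in late biopsies, against 10.03, 10.24 and 10.34 in early biopsies. In both genes the ranges overlapped while all 6 tumors were lower late. The mean difference was -0.34 for Cyp51 (SE 0.0623) and -0.32 for Tm7sf2 (SE 0.0598), each with an adjusted p of 0.206 in limma. The isomerase Ebp was at -0.19 and lower in 4 of 6 mice. The cyclase Lss (-0.01), the C4 dehydrogenase Nsdhl (0.00), the desaturase Sc5d (-0.02), the reductase Dhcr7 (-0.08) and the demethylating oxidase Msmo1 (-0.08) had intervals that crossed 0, and so did the ketoreductase Hsd17b7 at 0.04 (95% interval -0.15 to 0.22). Lss ranged widely among tumors, with a difference of 0.34 in mouse 1755 and of -0.47 in mouse 3413.

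**Figure D2:**
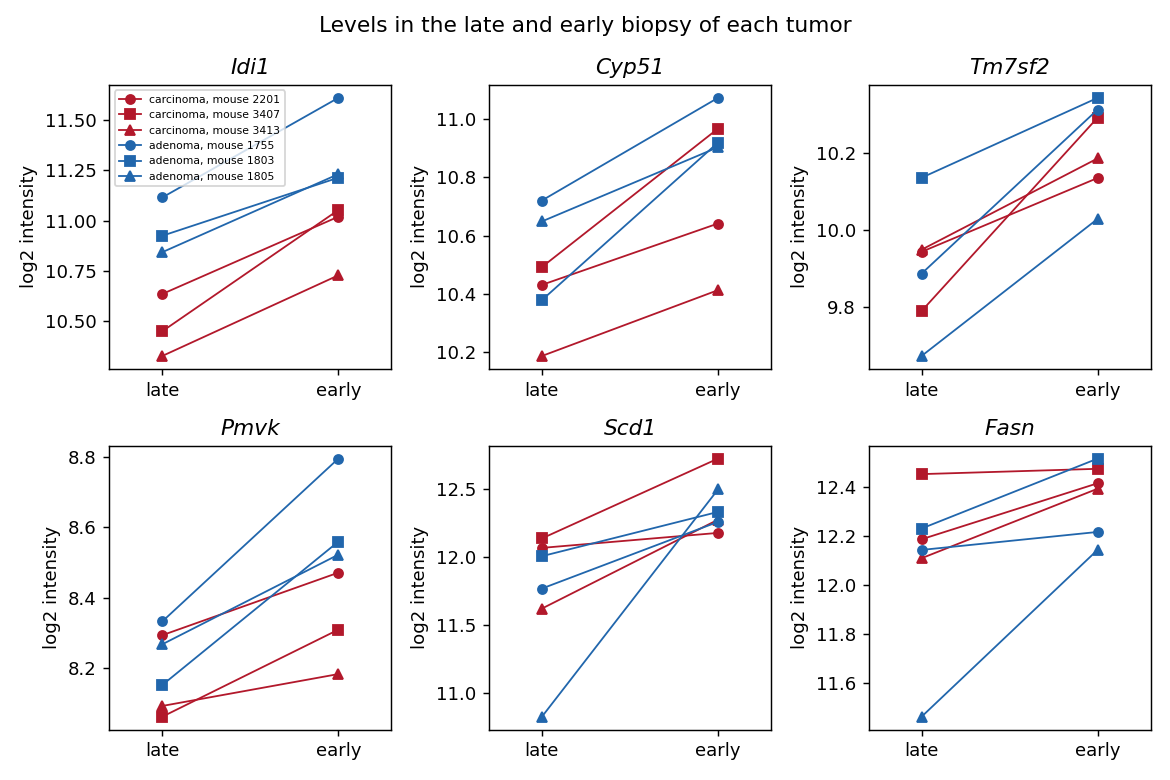
Log2 intensity in the late (left) and early (right) biopsy of each tumor for Idi1, Cyp51, Tm7sf2, Pmvk, Scd1 and Fasn, with 1 line per mouse (red for carcinoma, blue for adenoma) and a separate scale in each panel. Every line is lower at its late end; in Scd1 and Fasn the late biopsy of mouse 1805 is the lowest point, at 10.83 and 11.46.

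The 5 genes that sense sterols and control SREBP had no common direction: the median difference was 0.00, 2 were below 0, and none had an unadjusted p under 0.05. Srebf2 was at 11.73, 11.88 and 11.95 (lowest, median, highest) in late biopsies, against 11.73, 11.88 and 11.92 in early biopsies, a mean difference of 0.00 (95% interval -0.12 to 0.13). Srebf1 was at 9.98, 10.30 and 10.52 in late biopsies, against 10.28, 10.45 and 10.69 in early biopsies, a difference of -0.15 (95% interval -0.33 to 0.03). The Srebf2 groups covered nearly the same range. Insig1 differed by -0.21 with a wide interval (-0.52 to 0.10), with a difference of -0.75 in mouse 1805 and of 0.34 in mouse 2201. Insig2 was at 0.03 and Scap at 0.10 (SE 0.0645, limma, adjusted p = 0.501). Stard4, which moves sterols between membranes, was at -0.14 and lower in 5 of 6 mice.

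Among the 8 fatty acid genes 6 had a negative mean difference (75%, against 57.9% of all genes), with a median of -0.15. Of the 8, 4 were lower at an unadjusted p under 0.05 (50%, against 9.06% of all genes). Scd1, a desaturase that makes oleate, was at 10.83, 11.89 and 12.13 (lowest, median, highest) in late biopsies, against 12.18, 12.30 and 12.72 in early biopsies. Every late biopsy lay below every early one, and the mean difference was -0.64 (SE 0.184, limma, adjusted p = 0.255). Mouse 1805 had a difference of -1.67 and the other 5 mice -0.65 to -0.11, and without mouse 1805 the mean was -0.43. Fasn, fatty acid synthase, was at 11.46, 12.16 and 12.45 in late biopsies, against 12.14, 12.40 and 12.52 in early biopsies, a difference of -0.26 (SE 0.0879, limma, adjusted p = 0.274). Its lowest late value was again mouse 1805. Acaca, acetyl-CoA carboxylase, was at -0.17 and Acly, ATP citrate lyase, at -0.15, each lower in 5 of 6 mice. Scd2, another desaturase, was at 0.01 (95% interval -0.16 to 0.19), and the elongases Elovl5 and Elovl6 were at -0.03 and -0.15. Acss2, which makes acetyl-CoA from acetate, had the highest difference of the 31 at 0.15 (SE 0.0880, limma, adjusted p = 0.463), with a difference of 0.55 in mouse 1755 and of 0.31 in mouse 2201.

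The tumors differed in how much of the module was lower. In mouse 3413 all 31 genes (100%) were lower in the late biopsy, against 53% of all genes, with a median of -0.23. In the same mouse 11 of 11 fibroblast and matrix markers (median -0.53) and 8 of 8 smooth muscle markers (median -0.75) were also lower late. So were 7 of 10 endothelial markers (median -0.18) and 8 of 9 mast cell markers (median -0.79). Its epithelial markers were split, 5 lower and 5 higher (median -0.01), and 7 of 9 neutrophil markers were higher (median 0.73). In mouse 1803 28 of 31 genes (90.3%) were lower, against 55.7% of all genes, with a median of -0.24. There the stromal markers went the other way, with 11 of 11 fibroblast and matrix markers (median 2.07), 10 of 10 endothelial markers (median 1.46) and 8 of 8 smooth muscle markers (median 1.27) higher late, and 10 of 10 epithelial markers lower (median -0.15). The part of these markers in the values of both mice was not tested. Mouse 1805 had 21 lower (67.7%, against 52.8% of all genes, median -0.14) and mouse 3407 had 20 (64.5%, against 47.4%, median -0.11). Mouse 2201 had 19 lower (61.3%, median -0.04) and mouse 1755 had 13 (41.9%, median 0.04), shares below the 64.9% and 49.8% of all genes in those mice. The medians of all genes in these mice lay between -0.09 and 0.01. Over the 4 mice whose arrays cross the number ranges the median of the 31 mean differences was -0.10, and over the 2 mice within 1 range it was -0.15. Idi1 was at -0.39 over the 4 crossing mice and at -0.50 over the 2 others.

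The next question was whether tumors that ended as carcinoma and those that ended as adenoma changed differently. Carcinoma mice 2201, 3407 and 3413 were 95, 87 and 117 days old at the early biopsy and 267, 215 and 200 at the late one. Adenoma mice 1755, 1803 and 1805 were 94, 87 and 86 days old early and 234, 369 and 395 late. The changes thus cover unlike intervals. In the 3 carcinoma tumors 28 of 31 genes had a negative mean difference, against 60.2% of all genes, and the median was -0.11. Limma called none of them and no other gene at an adjusted p of 0.05 (0% of all genes), and 5 were lower at an unadjusted p under 0.05 (16.1%), against 2.61% of all genes, and 0 were higher, against 1.70%. In 3 of 3 carcinoma mice 14 were lower (45.2%), against 16.9% of all genes, and 0 were higher, against 9.73%. In the 3 adenoma tumors 19 of 31 had a negative mean difference, against 52.8% of all genes, with the same median of -0.11. Again none was among the 25 genes called (0.125% of all genes, 0.0351% higher and 0.0903% lower). At an unadjusted p under 0.05, 9 were lower (29.0%), against 10.7% of all genes, and 1, Scap, was higher, against 7.38%. In 3 of 3 adenoma mice 12 were lower (38.7%), against 22.4%, and 2 were higher, against 17.0%. The early adenoma arrays all carry low sample numbers. In a fit with the number range as a term the adenoma median was -0.25. All 3 adenoma mice cross the ranges, so that term was set by carcinoma mouse 2201 against mice 3407 and 3413. It shifts every adenoma value by the gap between those carcinoma mice and cannot separate range from change in adenoma tumors. In that fit 2 genes were lower and 0 higher at an unadjusted p under 0.05. Scap was not past that p without mouse 1805 either. Without mouse 1803 that adenoma count was 5 and without mouse 1805 it was 6, and the carcinoma count was 2 without mouse 3407 and 3 without mouse 3413. When 1 mouse was left out the carcinoma median lay between -0.15 and -0.07 and the adenoma median between -0.18 and -0.04.

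Idi1 was lower in every tumor of both pathologies, with a mean difference of -0.46 in carcinoma tumors (SE 0.0811, limma, adjusted p = 0.952) and of -0.39 in adenoma tumors (SE 0.0811, limma, adjusted p = 0.105). In carcinoma tumors Cyp51 was at -0.30, Tm7sf2 at -0.31, Pmvk at -0.17, Mvd at -0.28, Acaca at -0.23, Ebp at -0.08 and Scd1 at -0.45. In adenoma tumors Cyp51 was at -0.38, Tm7sf2 at -0.33, Pmvk at -0.38, Mvd at -0.17, Acaca at -0.12, Ebp at -0.30 and Scd1 at -0.83. Lss was at -0.15 in carcinoma tumors and at 0.13 in adenoma tumors, but in adenoma tumors it was at -0.38 with the number range as a term. Hsd17b7 was at -0.09 in carcinoma tumors and at 0.17 in adenoma tumors, where it was at 0.04 with that term. Acss2 (-0.11), Nsdhl (-0.25) and Fdps (-0.09), above 0 in adenoma tumors without that term, were below 0 with it. On the higher side Acss2 was at 0.11, Insig2 at 0.06 and Scd2 at 0.02 in carcinoma tumors, and Scap at 0.22 (SE 0.0701, limma, adjusted p = 0.183), Hsd17b7 at 0.17 and Acss2 at 0.19 in adenoma tumors.

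The test of the difference between these changes called no gene in limma (0% of all genes). The median over the 31 genes was 0.01 (-0.05 to 0.06 when 1 mouse was left out), and 15 were below 0, against 52.9% of all genes. Only Scap had an unadjusted p under 0.05 among them (3.37% of all genes were lower at that p), and 0 were higher, against 3.68%. The unadjusted p of Scap was 0.0432 in limma. It went past 0.05 after median centring (0.0709) and without any 1 mouse other than 2201 (0.0726 to 0.122). With age in days in place of late and early it was 0.175. With the number range as a term the difference was -0.16. That value compares mouse 2201, the only carcinoma mouse that crosses the ranges, with the adenoma mice. The late minus early difference of Scap was 0.06, -0.06 and -0.07 in carcinoma mice 2201, 3407 and 3413, against 0.20, 0.19 and 0.29 in adenoma mice 1755, 1803 and 1805. These changes did not overlap, which held for 6.67% of all genes in that direction. The difference was -0.25 for Scap (SE 0.0991, limma, adjusted p = 0.708), and it was 0.20 for Pmvk (SE 0.108, limma, adjusted p = 0.745), whose changes also did not overlap, against 6.39% of all genes. Hsd17b7 (-0.26) and Fdps (-0.23) had the next smallest p on the lower side, and Ebp (0.22) and Insig1 (0.40) on the higher side. For Idi1 the interval of the difference was -0.35 to 0.20, so these 6 mice do not settle whether it changed alike in both.

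Late biopsies were then compared by final pathology. All 8 mevalonate and squalene genes were below 0 in the carcinoma minus adenoma difference (median -0.23), of which 4 had an unadjusted p under 0.05, and so were all 9 genes from Lss to Dhcr7 (median -0.28), of which 3 had one. Of the 8 fatty acid genes 6 were above 0 (median 0.13, against 0.02 for all genes) and 0 were higher at an unadjusted p under 0.05. The fatty acid median was 0.05 without mouse 1805 and 0.20 without mouse 1755, and without mouse 3413 the mevalonate median was -0.12 and that of the genes from Lss to Dhcr7 -0.16. In total 23 of 31 were below 0, against 45.8% of all genes. Limma called none of the 31 and no other gene (0% of all genes). Of the 31, 8 were lower at an unadjusted p under 0.05 (25.8%), against 5.0% of all genes, and Srebf1 was higher, against 6.74%. In 5 genes, Idi1, Mvk, Fdft1, Stard4 and Hsd17b7, the 3 carcinomas all lay below the 3 adenomas (16.1%), against 6.12% of all genes, and in Srebf1 all lay above, against 8.77%. The count of 8 was 3 without mouse 1755, 4 without mouse 1805, 5 without mouse 3407 and 2 without mouse 3413. All late arrays carry high sample numbers. The median of the 31 genes was between -0.25 and -0.07 when 1 mouse was left out. The carcinoma mice 2201, 3407 and 3413 were 267, 215 and 200 days old at the late biopsy, against 234, 369 and 395 days for the adenoma mice 1755, 1803 and 1805, and the part of age in these differences was not tested.

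Idi1 was at 10.64, 10.45 and 10.33 in late carcinomas of mice 2201, 3407 and 3413, against 11.12, 10.93 and 10.84 in late adenomas of mice 1755, 1803 and 1805. The groups averaged 10.47 ± 0.15 in carcinoma and 10.96 ± 0.14 in adenoma (SD, n = 3 each), a difference of -0.49 (SE 0.129, limma, adjusted p = 0.401). The groups did not overlap. Mvk was at 9.61, 9.63 and 9.34 in the same carcinomas, against 9.97, 9.79 and 9.91 in the adenomas, a difference of -0.37 (SE 0.104, limma, adjusted p = 0.401). Fdft1 was at 12.14, 12.08 and 11.94 in carcinomas, against 12.28, 12.23 and 12.50 in adenomas, a difference of -0.28 (SE 0.0889, limma, adjusted p = 0.401). Neither gene's groups overlapped. Stard4 was at 10.14, 10.02 and 10.07 in carcinomas, against 10.52, 10.26 and 10.33 in adenomas, a difference of -0.29. Msmo1 (-0.40), Lss (-0.45), Hsd17b7 (-0.30) and Hmgcs1 (-0.28) were the other genes with an unadjusted p under 0.05.

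On the higher side, Srebf1 was at 10.52, 10.49 and 10.30 in late carcinomas, against 10.29, 10.22 and 9.98 in late adenomas, a difference of 0.27 (SE 0.122, limma, adjusted p = 0.425). The groups did not overlap, but the lowest carcinoma and the highest adenoma were nearly equal. Its unadjusted p was 0.0486, and it was above 0.05 without the mouse block, with the number range as a term, with the low-level filter, after quantile normalization or median centring, with a variance trend, and without mouse 1805 (0.182), 2201 or 3407. Fasn was at 12.19, 12.45 and 12.11 in carcinomas, against 12.14, 12.23 and 11.46 in adenomas, a difference of 0.30 (SE 0.180, limma, adjusted p = 0.523), and Elovl5 was at 0.18 (limma, adjusted p = 0.560). Both overlapped, and without mouse 1805, whose late biopsy was the lowest for both, Fasn was at 0.06 and Elovl5 at 0.06. Acss2 had the lowest difference of the 31 at -0.55, with a wide interval of -1.28 to 0.19.

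**Figure D3:**
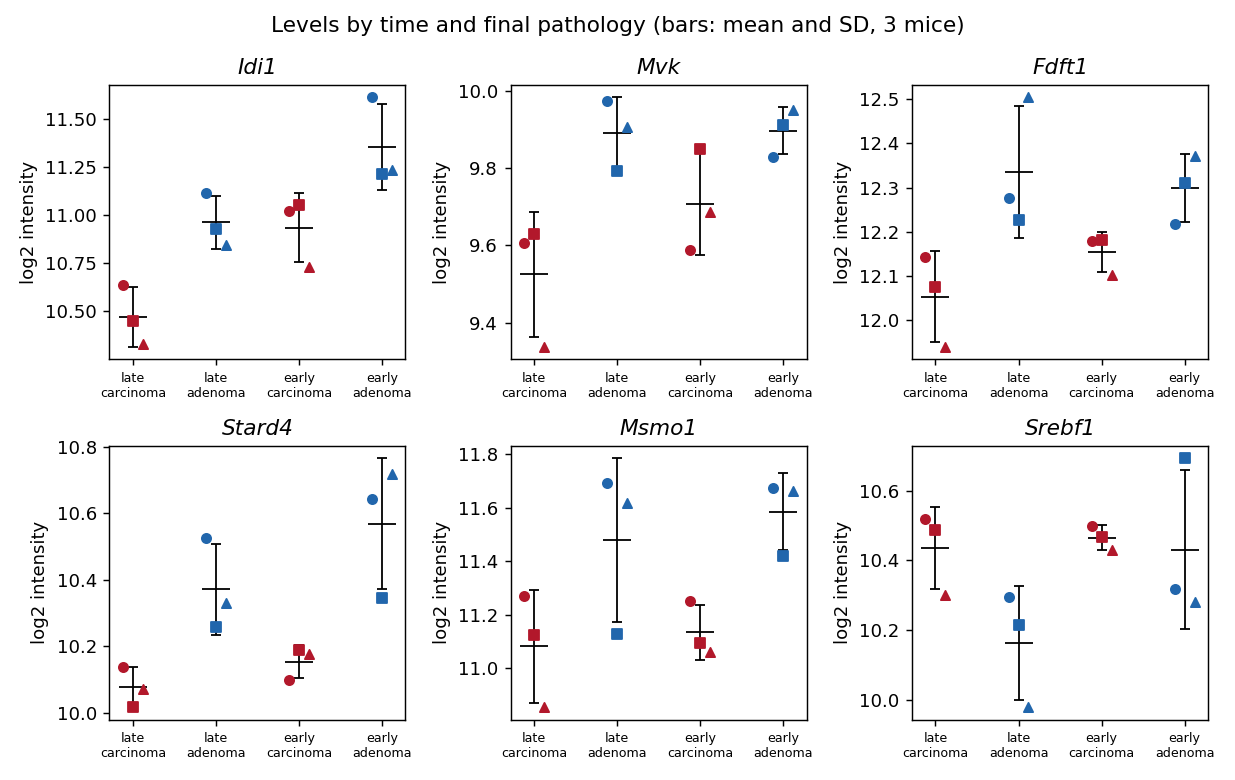
Log2 intensity of Idi1, Mvk, Fdft1, Stard4, Msmo1 and Srebf1 in late carcinoma, late adenoma, early carcinoma-fated and early adenoma-fated biopsies, with 1 point per mouse (circle, square and triangle for mice 2201, 3407 and 3413 in red and 1755, 1803 and 1805 in blue) and bars for the mean and SD of 3 mice. Late carcinomas lie below late adenomas without overlap for Idi1, Mvk, Fdft1 and Stard4 and above them for Srebf1, and for Msmo1 the groups overlap.

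Early biopsies were compared by what the tumor later became. In the carcinoma-fated minus adenoma-fated difference 7 of 8 mevalonate and squalene genes were below 0 (median -0.20), 3 of them at an unadjusted p under 0.05. So were 8 of 9 genes from Lss to Dhcr7 (median -0.18), 2 of them at that p. Of the 8 fatty acid genes 5 were above 0 (median 0.07). Their share below 0 was 37.5%, near the 39.9% of all genes, whose median was 0.04. In total 21 of 31 were below 0, against 39.9% of all genes. Limma called no gene (0% of all genes). Of the 31, 7 were lower at an unadjusted p under 0.05 (22.6%), against 4.90% of all genes, and Scap was higher, against 7.06%. The 3 carcinoma-fated biopsies lay below the 3 adenoma-fated ones in 9 genes, Hmgcs1, Pmvk, Idi1, Fdft1, Sqle, Msmo1, Ebp, Insig1 and Stard4, as did 7.31% of all genes, and above them in Scap, as did 10.7%. The count of 7 was 4 without mouse 1805 and 4 without mouse 3413. Scap was no longer past an unadjusted p of 0.05 with the number range as a term, after median centring, without mouse 1805 or without mouse 3407. The late and early comparisons use the same 6 tumors and are not independent of each other.

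Stard4 was at 10.10, 10.19 and 10.18 in the early biopsies of carcinoma mice 2201, 3407 and 3413, against 10.64, 10.34 and 10.72 in those of adenoma mice 1755, 1803 and 1805, a difference of -0.41 (SE 0.106, limma, adjusted p = 0.265). Idi1 was at 11.02, 11.05 and 10.73 in carcinoma-fated biopsies, against 11.61, 11.21 and 11.23 in adenoma-fated ones, a difference of -0.42 (SE 0.129, limma, adjusted p = 0.292). Msmo1 was at 11.25, 11.09 and 11.06 in carcinoma-fated biopsies, against 11.67, 11.42 and 11.66 in adenoma-fated ones, a difference of -0.45 (SE 0.148, limma, adjusted p = 0.303). None of these groups overlapped. Scap was higher by 0.20 (SE 0.0677, limma, adjusted p = 0.315), Acaca by 0.24 (limma, adjusted p = 0.488) and Srebf2 by 0.10 (limma, adjusted p = 0.653).

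The early adenoma arrays and the early array of mouse 2201 carry low sample numbers, and those of mice 3407 and 3413 high ones. With the number range as a term the median was -0.10, 3 of 31 genes were lower at an unadjusted p under 0.05, and Stard4 was at -0.49, Idi1 at -0.39, Msmo1 at -0.40 and Scap at 0.13. Among early arrays that term is set by mouse 2201 against mice 3407 and 3413. The values with it thus rest mainly on mouse 2201 against the adenoma mice. In that same comparison, within the low numbers, mouse 2201 was below all 3 adenoma mice for Stard4, Idi1 and Msmo1.

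Marker genes of other cell types moved with these comparisons, and their part in the differences was not tested. In late minus early 57.9% of all genes were below 0. Of all genes 9.06% were lower and 5.68% higher at an unadjusted p under 0.05. Between late and early biopsies the epithelial markers had a median difference of -0.01 over 10 genes, and 0 had an unadjusted p under 0.05. Fibroblast and matrix markers were higher late, 11 of 11 (median 0.74, 7 at an unadjusted p under 0.05), with a mean level of 10.74 to 11.27 in late biopsies and 9.22 to 11.37 in early ones. Endothelial markers were likewise higher late, 10 of 10 (median 0.89), at 9.71 to 10.13 in late and 8.43 to 10.07 in early biopsies. Mast cell markers were below 0 late in 8 of 9 (median -1.01, 3 at an unadjusted p under 0.05), at 7.17 to 9.03 in late and 7.58 to 10.53 in early biopsies. Neutrophil markers were above 0 late in 7 of 9 (median 0.88, 5 at an unadjusted p under 0.05), at 8.67 to 10.35 in late and 7.94 to 9.35 in early biopsies. Proliferation markers had a median of -0.11 and a mean level of 10.43 to 11.47 in late and 10.82 to 11.50 in early biopsies. Adipocyte markers, which mark a cell type with its own fatty acid synthesis, were at 7.03 to 7.50 in late and 6.96 to 7.34 in early biopsies.

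Between pathologies most epithelial markers were on the same side of 0 as most cholesterol genes. At the late biopsy 10 of 10 were lower in carcinoma (median -0.23, 5 at an unadjusted p under 0.05), with a mean level of 11.86 to 12.03 in carcinomas and 11.97 to 12.57 in adenomas. At the early biopsy 9 of 10 were lower in carcinoma-fated tumors (median -0.24, 2 at an unadjusted p under 0.05). The early epithelial mean was 12.53, 12.15 and 12.24 in adenoma mice 1755, 1803 and 1805. Carcinoma mouse 2201, with a low sample number as in those mice, lay among them at 12.33. Mice 3407 and 3413, with high numbers, were at 11.75 and 11.91, and the part of the number range was not tested. Proliferation markers were higher in carcinoma, 9 of 9 at both times, with medians of 0.36 late and 0.38 early. At the early biopsy fibroblast markers (11 of 11, median 0.94) and endothelial markers (10 of 10, median 0.83) were also higher in carcinoma-fated tumors. The early endothelial mean was 8.84, 8.43 and 8.81 in adenoma mice 1755, 1803 and 1805. It was 8.86 in carcinoma mouse 2201, also with a low number, and 9.67 and 10.07 in mice 3407 and 3413. The early fibroblast mean was 9.88, 9.22 and 10.24 in these adenoma mice and 9.91 in mouse 2201. In mice 3407 and 3413, with high numbers, it was 10.61 and 11.37. The part of the number range in these levels was not tested. Neutrophil markers were above 0 at the early biopsy in 8 of 9 (median 1.18, 5 higher at an unadjusted p under 0.05). Their mean level was 8.65 to 9.35 in carcinoma-fated and 7.94 to 8.61 in adenoma-fated biopsies. B and plasma cell markers were below 0 at the early biopsy in 6 of 7 (median -1.02, 0 at an unadjusted p under 0.05), at 7.80 to 8.66 in carcinoma-fated and 8.10 to 10.83 in adenoma-fated biopsies. At the late biopsy 7 of 9 neutrophil markers were below 0 in carcinoma (median -0.49, 2 lower and 1 higher at an unadjusted p under 0.05) and 8 of 9 mast cell markers above 0 (median 0.57, 0 at that p). Macrophage markers were above 0 there in 8 of 10 (median 0.59, 2 at that p), at 9.28 to 9.85 in carcinomas and 9.05 to 9.41 in adenomas, and T cell markers in 7 of 7 (median 0.42, 1 at that p), at 7.32 to 8.15 in carcinomas and 7.02 to 7.50 in adenomas. B and plasma cell markers were below 0 late in 6 of 7 (median -0.80, 0 at that p), at 7.83 to 9.44 in carcinomas and 8.82 to 9.64 in adenomas. The fatty acid genes had a median above 0 in late carcinomas, as had the proliferation, macrophage, mast cell and T cell lists. The epithelial list and the other marker lists had medians below 0, and the part of any list was not tested.

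Over the 12 arrays the cholesterol genes had higher median correlations among themselves than with the fatty acid genes. Pearson's r is given as a description only, since the 12 arrays come from 6 mice and share processing. The median r was 0.73 among the 28 pairs of mevalonate and squalene genes, 0.58 between these and the lanosterol genes, and 0.47 among the lanosterol genes. It was 0.26 among fatty acid genes, 0.14 between mevalonate and fatty acid genes, and 0.04 between lanosterol and fatty acid genes. Hmgcs1 with Sqle (0.93) and Mvd with Sqle (0.93) were the closest cholesterol pairs, and Hmgcs1 with Msmo1 was at 0.92. Srebf1 went with Fasn (0.87), Fasn with Scd1 (0.86) and Fasn with Acaca (0.86). Acss2, by contrast, had an r of -0.75 with Fasn over the 12 arrays but of 0.52 over the 6 late minus early differences. Over those 6 differences the role medians had another order, with 0.64 among fatty acid genes, 0.34 within the mevalonate genes, 0.37 between these and the lanosterol genes and 0.19 among the lanosterol genes. Between mevalonate and fatty acid genes the median was 0.02 and between lanosterol and fatty acid genes 0.13.

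**Figure D4:**
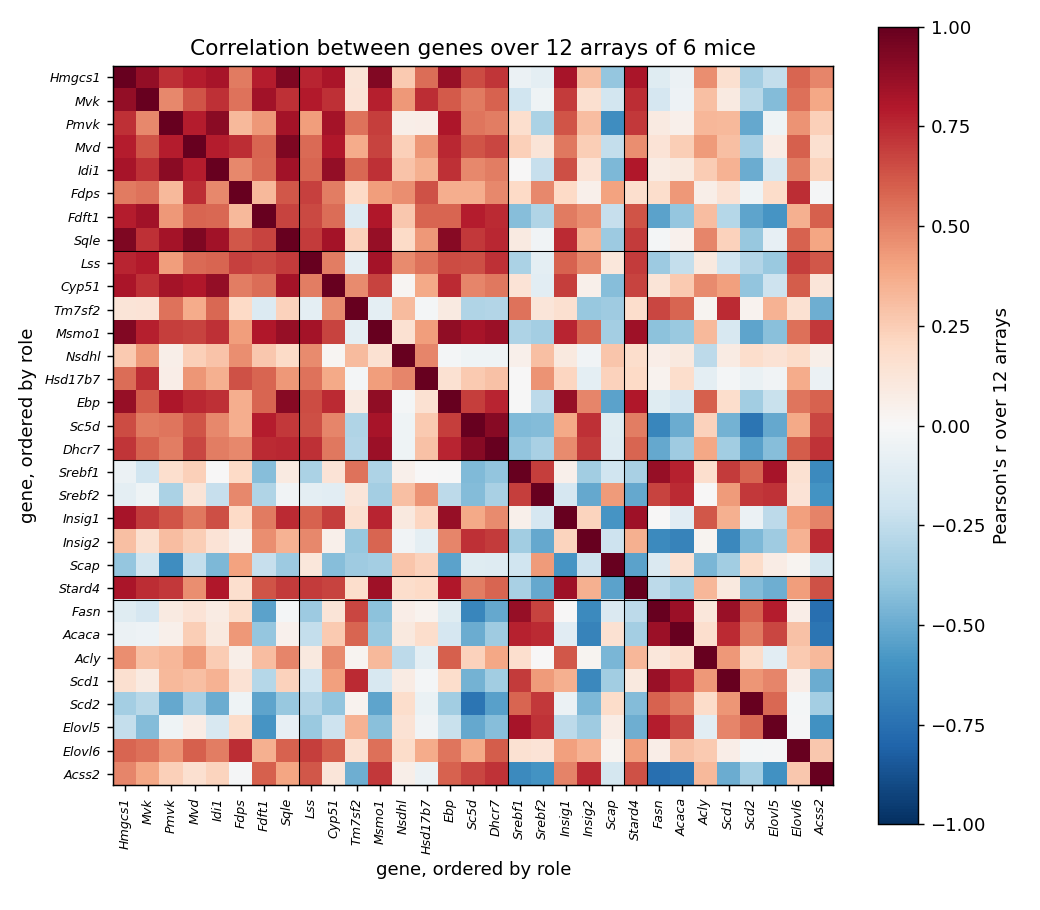
Pearson's r over 12 arrays of 6 mice between every pair of the 31 genes, ordered by role with lines between roles, on a colour scale from -1 (blue) to 1 (red). The mevalonate and lanosterol block is mostly red with median r of 0.73 and 0.47 inside its parts, Tm7sf2 and Nsdhl stand out of it, and Fasn, Acaca, Scd1, Srebf1 and Srebf2 form another red patch.

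Genes of neighbouring pathways, from lists also written with earlier results known, had medians between -0.06 and 0.02 in the late minus early comparison, and limma called none of them. Cholesterol uptake, efflux and ester genes had a median of 0.02 over 16 measured of 19 listed, with 2 lower at an unadjusted p under 0.05 (12.5%, against 9.06% of all genes), the sterol hydroxylase Cyp27a1 (-0.37, SE 0.129) and the lysosomal sterol carrier Npc2 (-0.16, SE 0.0638). The apolipoprotein Apoe was at 0.51 (SE 0.237). Other isoprenoid genes had a median of -0.06 (6 of 8 below 0), and Ggps1, which makes geranylgeranyl diphosphate, was lower in 6 of 6 mice at -0.25 (SE 0.0786). Of 7 genes for SREBP processing and sterol-driven degradation (median -0.03), Mbtps1, the first protease that cuts SREBP, was at -0.24 and the ubiquitin ligase Rnf145 at -0.32, each lower in 5 of 6 mice.

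Other lipogenic genes had a median of 0.00 over 28, with 14 below 0. Mid1ip1, which stimulates acetyl-CoA carboxylase, was lower in 6 of 6 mice at -0.34 (SE 0.0836) and Scd3 in 5 of 6 at -0.29, while Dgat1, which makes triglyceride, was higher in 6 of 6 at 0.35 (SE 0.123). Fatty acid oxidation and ketogenesis genes had a median of -0.01 over 17. In that list Acads (-0.32, SE 0.0648) and Eci1 (-0.37, SE 0.0925), enzymes of mitochondrial oxidation, and Pdk4 (-0.91, SE 0.247), a kinase that restrains pyruvate oxidation, were each lower in 6 of 6 mice (17.6% of the list, against 5.18% of all genes). The oxidation list was also below 0 in carcinoma against adenoma, in 14 of 17 genes at the late biopsy (82.4%, against 45.8% of all genes, median -0.32) and in 17 of 17 at the early biopsy (100%, against 39.9%, median -0.34). At an unadjusted p under 0.05, 8 were lower at the late biopsy (47.1%, against 5.0% of all genes) and 9 at the early biopsy (52.9%, against 4.90%).

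For 3 genes another probe set was measured. The other probe set of Idi1 was at -0.44 (SE 0.0542) in the late minus early comparison, beside -0.43 for the kept one, and that of Fdft1 at -0.01 beside -0.03. For Acaca the other probe set was at -0.06 (lower in 4 of 6 mice, unadjusted p = 0.344 in limma) beside -0.17 (5 of 6, 0.0272), and in carcinoma tumors at -0.11 (unadjusted p = 0.265 in limma) beside -0.23 (0.0412). Around the kept Idi1 probe set, 19 of the 20 probe sets nearest in number belong to chromosome 2, whereas Idi1 is on chromosome 13. For the kept Acaca probe set 18 of 20 belong to chromosome 12, whereas Acaca is on chromosome 11. For the other Idi1 probe set all 20 belong to chromosome 13, and for the other Acaca probe set 19 of 20 belong to chromosome 11. The values printed as Idi1 and Acaca come from the kept probe sets and may therefore not measure these genes alone or at all. With the other probe set, Idi1 was at -0.50 in the late carcinoma minus adenoma difference, beside -0.49, and at -0.45 in the early one, beside -0.42. The other Acaca probe set was at 0.26 in the early difference, beside 0.24.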

How the data were processed

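Biopsy RNA was hybridised to 12 Affymetrix arrays, per the labels' protocols. The authors' deposited table holds 1 value for each of 35557 probe sets, taken as log2 intensity from its range; its normalization is not stated there or in the labels. Of the probe sets, 21789 named 1 gene symbol, 1621 several and 12147 none; the brightest on average over 12 arrays was kept for each of 19938 genes (999 had several). Differences were tested with limma 3.58.1 in R 4.3.3, with Benjamini-Hochberg adjustment over all genes and a threshold of 0.05. Late against early biopsies used mouse as a fixed block, since both biopsies came from 1 tumor (5 residual degrees of freedom, 4 by pathology; correlations of a mouse's 2 arrays after removing group means 0.110 to 0.527). Pathologies were compared in a fit of 4 groups with mouse as a random block (correlation 0.286). The fits were tested on simulated data with changes of 1 and 2 log2. Of changes of 1 log2, 94% were called late against early and 72% in late carcinoma against adenoma. In these fits 13 and 10 unchanged genes were called. Changes as small as the mean differences of the listed genes were not simulated. The members and all lists were chosen with earlier results of these data known. Statistics in full are given for up to 6 listed genes per direction with the smallest unadjusted p (3 between pathologies) and up to 3 of a neighbouring list; other names were chosen after their values were seen. Alternatives were other probe-set rules, low-level filter, normalization, centring, variance trend, no block, number range, age in place of late and early, and each mouse left out.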

Additional observations from a re-analysis of the deposited data

Results flagged for a closer look

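In 93 groups of 6 values examined for 1 sample far from the others (31 genes, late, early and difference), 6 held one, and chance gives about 1 in 20. In 4 of the 6 the sample was the late biopsy or the difference of mouse 1805, an adenoma tumor. Scd1 differed by -1.67 between its late and early biopsy, against -0.65 to -0.11 in the other 5 mice. Its late biopsy was at 11.46 log2 for Fasn, against 12.11 to 12.45 in the other late biopsies. It was at 13.21 for Scd2, against 13.41 to 13.53. It was at 11.40 for Elovl5, against 11.72 to 11.88. In the same late biopsy the proliferation markers had a mean level of 10.43 and the neutrophil markers of 10.35, and their part in these values was not tested. The early biopsy of mouse 1805 was at 11.08 for Fdps, against 11.25 to 11.32 in the other early biopsies. The early biopsy of mouse 3407 was at 9.96 for Insig2, against 10.34 to 10.39.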

How the results depend on the processing

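No listed gene was called under any setting in any comparison. The median of the 31 late minus early differences stayed between -0.15 and -0.08, leaving aside the fit with age as a term. In that fit age in days took the place of late and early, so they were not adjusted for age, and its unit is log2 per 100 days. All genes called in limma moved with the setting: over all tumors (0) to 20 with the 4 crossing mice, 33 with age as a term and 0 to 2 leaving out 1 mouse; in adenoma tumors (25) to 2 without the replicate block, 0 with the number range as a term, 13 above the 25th percentile of level, 57 after median centring, 63 with age and 0 to 78 leaving out 1 mouse; in carcinoma tumors (0) to 0 to 1. Late carcinoma against adenoma (0) gave 0 to 395, with 395 without mouse 1803, and the early comparison (0) gave 0 to 67, with 67 without mouse 1803 and 3 without mouse 2201. The members' median in adenoma tumors moved to -0.25 with the number range (-0.11 without it), and that of the difference of changes (0.01) turned to -0.0278 with age, was also below 0 after quantile normalization and median centring, and lay between -0.0471 and 0.0557 leaving out 1 mouse. Without the replicate block Idi1 had an adjusted p of 0.485 in limma, and 6 listed genes, not 11, were lower at an unadjusted p under 0.05. Several named genes turned direction, and the causes were not tested. With the number range as a term the late minus early estimate rests on mice 3407 and 3413 alone, as it does within 1 range. There Scap was at -0.0655, Hsd17b7 at -0.14, Scd2 at -0.0309 and Srebf2 at -0.0536. Insig2 was at -0.0056 in the crossing mice and Scd2 at -0.0118 with age. Leaving out 1 mouse gave Hsd17b7 -0.0152 to 0.104, Insig2 -0.0210 to 0.0964, Scd2 -0.0460 to 0.0637 and Srebf2 -0.0285 to 0.0338, and in carcinoma tumors Insig2 -0.0157 to 0.0960 and Scd2 -0.0309 to 0.0771. With the number range as a term, adenoma tumors had Acss2 at -0.11, Nsdhl at -0.25, Lss at -0.38 and Fdps at -0.0879. These adenoma values include the gap of carcinoma mouse 2201 from mice 3407 and 3413. Carcinoma tumors, then mice 3407 and 3413 alone, had Scd2 at -0.0309.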
